A study of Mus musculus with 42 samples.

Results

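The genes described here are 35 symbols of the ATF4 stress response and of amino acid supply, chosen by name from the first column of the deposited tables. They matched 36 of the 55401 gene rows, because Ddit3 is listed under 2 gene IDs. The second Ddit3 ID was at 0 TPM in all 42 libraries and is not discussed further. By role the set holds 7 transcription factors, 6 feedback and growth regulators, 10 enzymes of amino acid and one-carbon synthesis, 9 amino acid transporters and 3 other targets.

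ATF4 is a transcription factor of the integrated stress response. Kinases that sense amino acid shortage, unfolded protein in the endoplasmic reticulum, haem lack or double-stranded RNA phosphorylate the initiation factor eIF2, which lowers protein synthesis in general and raises translation of the Atf4 mRNA through upstream open reading frames. ATF4 then activates genes for amino acid synthesis and import, together with inhibitors that limit the response. Much of this control acts on translation, and RNA abundance does not report how much ATF4 protein is made.

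Polyadenylated RNA was sequenced in 7 mouse cancer cell lines treated for 6 h with 10 µM RECTAS in 0.1% DMSO, or with 0.1% DMSO alone. RECTAS is a small molecule that alters pre-mRNA splicing. B16 (melanoma), EG7 (lymphoma), LLC (lung carcinoma) and Pan02 (pancreatic adenocarcinoma) grew in DMEM, as did WEHI3 (leukemia), whose medium also held 2-mercaptoethanol, while CT26 and MC38, both colorectal, grew in RPMI-1640. All media held fetal bovine serum, penicillin and streptomycin. There were 3 libraries for each line and treatment, 42 in 14 groups. Whether they stem from separate cultures is not stated, and the p-values then cover only the spread between these samples, which may be technical.

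The values were TPM, the share of a gene in all transcripts of a library after correction for length, scaled so that each library has the same total. A library held 11001 to 12205 genes at 1 TPM or more, the correlation of replicates across genes was 0.993 to 0.995 on the log2(TPM + 1) scale, and the read depth is unknown. The 36 rows together took 0.254% to 0.477% of all transcripts. In bulk RNA, fewer cells of a kind and less RNA per cell cannot be told apart. Of the markers of the labelled origin, 7 of 7 melanocyte genes reached 1 TPM in B16, 8 of 8 T lymphoid genes in EG7 and 8 of 9 myelomonocytic genes in WEHI3. Markers of other origins were present too. In WEHI3, 4 of the 8 T lymphoid genes reached 1 TPM, while Zap70, Cd3e and Cd3g averaged below 0.1 TPM. The 8 together gave 2153 to 2264 TPM there, against 1985 to 2011 TPM in EG7. In B16, 2 of the 9 myelomonocytic genes reached 1 TPM, while Csf1r, Itgam, Ctsg, Fcgr3, Mpo and Elane averaged below 0.1 TPM. The 9 together gave 788 to 821 TPM in B16, against 2147 to 2176 TPM in WEHI3. Both sums thus came from part of the list. Of 7 epithelial genes, 5 reached 1 TPM in Pan02, 2 in LLC and 0 in CT26 and in MC38, where the 7 together gave 0.40 to 0.86 TPM in CT26 and 0.19 to 0.30 TPM in MC38. Of 7 mesenchymal genes, 7 reached 1 TPM in CT26, 6 in B16, 5 in LLC and in MC38, and 4 in Pan02. In EG7 and in WEHI3, 1 of them did.

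ATF4 binds DNA as a partner of C/EBP factors, at a composite element whose core is written here as TGATGNAA. The letters were searched on both strands in windows of 250 bases before and 50 bases after each RefSeq gene start (GRCm38.p6), and 29 of the 35 genes had a window. The element's letters were present in 9 of those 29 genes (31.0%), against 4.51% of all 27025 genes with a window. The 9 were Asns, Atf3, Chac1, Nupr1, Pck2, Slc1a4, Slc7a11, Trib3 and Vldlr. Upstream stretches of 5 genes are printed because they belong to genes on which the results below turn: Trib3, Chac1, Asns and Nupr1 for their response to RECTAS, and Slc7a11 for its level between lines. Each runs 5′ to 3′ on the gene's own strand, with the matched letters in capitals.
Trib3: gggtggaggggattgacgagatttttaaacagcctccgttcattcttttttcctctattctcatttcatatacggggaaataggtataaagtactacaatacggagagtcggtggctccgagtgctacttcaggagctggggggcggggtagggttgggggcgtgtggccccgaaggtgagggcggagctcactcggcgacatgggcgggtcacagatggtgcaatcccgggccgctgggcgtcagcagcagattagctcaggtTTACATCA
Chac1: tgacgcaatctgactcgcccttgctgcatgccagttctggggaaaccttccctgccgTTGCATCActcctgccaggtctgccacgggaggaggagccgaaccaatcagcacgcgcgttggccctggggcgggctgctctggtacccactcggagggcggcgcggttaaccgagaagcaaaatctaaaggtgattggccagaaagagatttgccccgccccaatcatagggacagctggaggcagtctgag
Asns: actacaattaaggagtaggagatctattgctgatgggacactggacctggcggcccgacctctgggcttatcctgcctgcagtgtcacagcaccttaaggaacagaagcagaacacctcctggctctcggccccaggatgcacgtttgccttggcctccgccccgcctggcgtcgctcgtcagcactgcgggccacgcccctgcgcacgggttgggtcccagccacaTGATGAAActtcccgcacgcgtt
Nupr1: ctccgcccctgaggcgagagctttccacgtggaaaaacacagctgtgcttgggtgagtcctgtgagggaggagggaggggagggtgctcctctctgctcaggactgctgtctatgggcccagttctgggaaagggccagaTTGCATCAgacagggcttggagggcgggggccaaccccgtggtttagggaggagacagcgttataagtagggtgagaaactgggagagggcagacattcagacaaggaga
Slc7a11: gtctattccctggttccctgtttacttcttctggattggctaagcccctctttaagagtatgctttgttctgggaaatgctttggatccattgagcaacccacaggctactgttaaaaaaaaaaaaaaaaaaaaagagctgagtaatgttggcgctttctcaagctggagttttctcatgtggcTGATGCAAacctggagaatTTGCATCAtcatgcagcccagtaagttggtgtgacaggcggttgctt
The Trib3 stretch lies at chr2:152344039-152344310 (minus strand) and ends 22 bases after the RefSeq gene start, since its match lies past that start. The GENCODE M21 annotation puts the 5′ end of Trib3 at 152344032, so by that annotation the match lies before the gene. The Chac1 stretch lies at chr2:119350992-119351241 (plus strand), the Asns stretch at chr6:7693210-7693459 (minus strand), the Nupr1 stretch at chr7:126625471-126625720 (minus strand) and the Slc7a11 stretch at chr3:50443614-50443863 (minus strand), each ending at the base before the gene start. Asns holds the element in the forward direction, Trib3, Chac1 and Nupr1 hold it in reverse as TTACATCA or TTGCATCA, and Slc7a11 holds both a forward and a reverse copy that do not overlap. A match is a run of letters and not a measured binding site.

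In DMSO, MC38 stood out as the line with the highest level of this set. Of the 35 genes, 15 were higher in MC38 than the mean of the other 6 lines and 0 were lower, at an adjusted p below 0.05 and a log2 difference of at least 1 (limma). By the same rule, minimum size included, 10.2% of all 16108 genes of the fit were higher in MC38 and 8.25% lower. With no minimum size, 31 of the 35 were higher and 4 lower at that adjusted p. The share of all genes without the minimum size is not given here. The 15 were Aldh1l2, Chac1, Cth, Ddit3, Eif4ebp1, Gpt2, Pck2, Ppp1r15a, Psph, Slc1a4, Slc7a11, Slc7a5, Stc2, Trib3 and Vldlr, and they come from all 5 role groups. MC38 had the highest mean for 16 of the 35 genes. Among the 27 genes at 1 TPM or more in every line, the highest mean was in MC38 for 13, while 13.1% of all 8731 such genes peaked there.

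The other lines were mixed. WEHI3 had 10 genes higher and 2 lower (15% and 13.7% of all genes). CT26, the other colorectal line in the same medium as MC38, had 5 higher and 9 lower (11.1% and 8.84%). EG7 had 4 higher and 10 lower (10.3% and 17.8%), Pan02 had 4 higher and 7 lower (10.4% and 9.29%), and LLC had 3 higher and 3 lower (9.05% and 7.65%), 10 in all with a pseudocount of 0.1. B16 had 1 higher, the mitochondrial folate enzyme Aldh1l2, and 10 lower (15.7% and 9.77%).

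**Figure D1:**
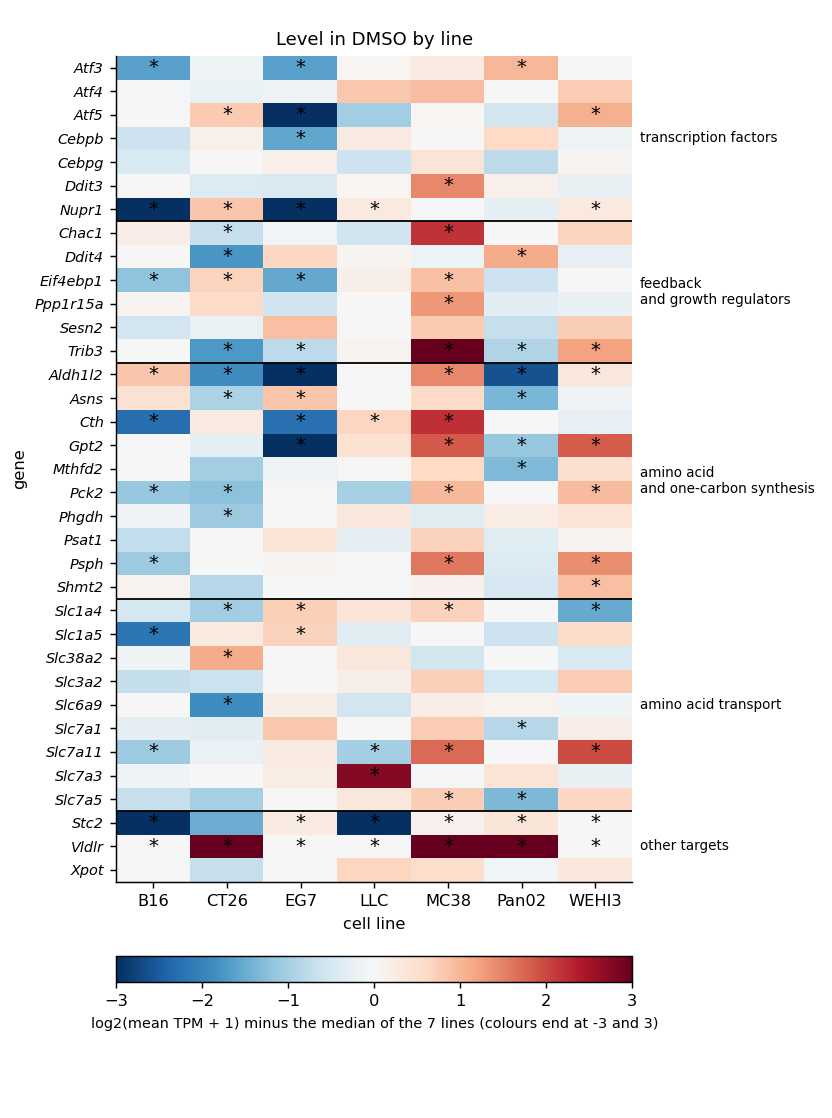
Levels of the 35 genes (rows, by role) in the 7 lines (columns) in DMSO, as log2(mean TPM + 1) of 3 libraries minus the median of the 7 lines, with colours ending at -3 and 3. A star marks a line called higher or lower than the mean of the other 6 lines, which is another yardstick than the median that sets the colour. The MC38 column holds 15 stars, all on the higher side.

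Among the transcription factors, Atf4 itself was abundant in every line and had the narrowest range of line means, 1.14 on the log2(TPM + 1) scale. Its DMSO libraries read 659, 645 and 639.7 TPM in MC38, 595, 593 and 585 TPM in LLC, and 569, 581 and 585 TPM in WEHI3. Below a wide gap followed Pan02 at 339, 335 and 344 TPM, B16 at 333, 324 and 340.3 TPM, EG7 at 312, 308 and 306 TPM, and CT26 at 291, 293 and 298 TPM. The ratio of the highest to the lowest line mean was 2.21, and in this order LLC and WEHI3 did not differ past the threshold (limma adjusted p = 0.166), nor did Pan02 and B16 (limma adjusted p = 0.227). Ddit3, which encodes the pro-apoptotic factor CHOP, averaged 80.2 ± 1.31 TPM in MC38 (SD, n = 3), against line means of 21.1 to 32.6 TPM elsewhere. It overlaps Mars1 on the opposite strand, so some of its reads could be assigned to either gene.

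The 2 factors with the widest spread were low in EG7. Atf5, a relative of ATF4 that is also translated through upstream reading frames, averaged 3.71 ± 0.0777 TPM in EG7, 42.8 to 153 TPM in LLC, Pan02, B16, MC38 and CT26, and 189 ± 7.80 TPM in WEHI3 (SD, n = 3). MC38 and B16 were neighbours in this order and did not differ past the threshold (limma adjusted p = 0.269). Nupr1, a small stress-induced chromatin protein, averaged 5.41 ± 0.57 TPM in EG7 and 5.84 ± 1.21 TPM in B16, against 44.6 to 99.2 TPM in the other 5 lines (SD, n = 3), with the highest level in CT26.

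The feedback gene Trib3, a pseudokinase that inhibits ATF4 and is itself an ATF4 target, set MC38 apart most clearly. It read 118, 117 and 118 TPM in the MC38 libraries, 33.9, 32.1 and 32.6 TPM in WEHI3, and 3.30, 3.25 and 3.64 TPM in CT26. MC38 stood 3.38 ± 0.0373 (SE) above the mean of the other lines on the log2(TPM + 1) scale (limma adjusted p = 4.2e-21), and its mean was 3.58 times that of the next line, WEHI3. Chac1, which breaks down glutathione, followed the same pattern at 42.8, 42.9 and 45.1 TPM in MC38, against 4.95 to 16.03 TPM over the 18 DMSO libraries of the other lines. Ppp1r15a, the subunit that directs a phosphatase to eIF2, averaged 34.6 TPM in MC38 and at most 20.5 TPM in another line. Ddit4, an inhibitor of mTORC1, did not follow it. Ddit4 was highest in Pan02, at 77.1 ± 5.58 TPM, and lowest in CT26, at 9.84 ± 1.23 TPM (SD, n = 3).

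Among the enzymes, some were a matter of presence or absence. Gpt2, the mitochondrial alanine aminotransferase, averaged 66.0 ± 1.66 TPM in MC38 and 65.0 ± 1.49 TPM in WEHI3, which did not differ past the threshold (limma adjusted p = 0.763), and was listed at 0.01 to 0.18 TPM in EG7. Aldh1l2 ranged between 47.1 ± 1.81 TPM in MC38 and 0 to 0.01 TPM in EG7. Cth, the last step of cysteine synthesis from methionine, averaged 20.96 ± 0.997 TPM in MC38, was listed at 0 in all 3 DMSO libraries of B16 and did not exceed 0.06 TPM in EG7.

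The serine pathway did not move as a block. Phgdh, its first enzyme, was highest in WEHI3 at 742 ± 7.96 TPM and low in MC38 at 436 ± 9.89 TPM, with only CT26 below it at 262 ± 4.99 TPM (SD, n = 3). The next enzyme, Psat1, was highest in MC38 at 536 ± 19.1 TPM and lowest in B16 at 196 ± 3.21 TPM. Psph, the last, was highest in MC38 at 139 ± 10.99 TPM and in WEHI3 at 123 ± 7.83 TPM, and these neighbours did not differ past the threshold (limma adjusted p = 0.0922). Asns, asparagine synthetase, peaked in another line again, at 295 ± 2.15 TPM in EG7, and was lowest in Pan02 at 63.6 ± 2.77 TPM.

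Among the transporters, Slc7a11, the cystine and glutamate exchanger with 2 matches in the stretch printed above, was high in the same pair of lines as Gpt2. It read 9.82 to 10.2 TPM in WEHI3, 7.44 to 9.12 TPM in MC38, 2.33 to 2.40 TPM in EG7, and at most 0.44 TPM in LLC and B16. Slc7a3, a cationic amino acid transporter, reached 1 TPM on average in LLC alone, at 7.22 ± 0.575 TPM (SD, n = 3). The chains of the large neutral amino acid transporter, Slc7a5 and Slc3a2, were both high in MC38 and WEHI3: Slc7a5 averaged 225 ± 3.80 TPM in MC38 and 208 ± 5.59 TPM in WEHI3, and Slc3a2 averaged 363 ± 5.77 TPM in MC38 and 371 ± 4.63 TPM in WEHI3. Slc38a2, a sodium-coupled neutral amino acid transporter, ran the other way, with its lowest mean in MC38 at 65.7 TPM and its highest in CT26 at 210.3 TPM. Among the other targets, the lipoprotein receptor Vldlr averaged 33.8 ± 1.35 TPM in CT26, 21.7 ± 1.96 TPM in MC38 and 19.2 ± 2.31 TPM in Pan02, and was listed at 0 to 0.01 TPM in the other 4 lines. The secreted protein Stc2 was listed at 0 in B16 and LLC and averaged 5.31 to 21.8 TPM in the other 5 lines.

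The levels of all 35 genes differed between lines by the limma F-test, as did those of 97.3% of the genes tested, so size is the more telling measure. The 27 genes at 1 TPM or more in every line had a median range of line means of 2.07 on the log2(TPM + 1) scale, and all such genes had a median range of 1.28. Ranked over the 7 line means, 24 of the 26 others had a positive Spearman correlation with Atf4 (median 0.30), and 23 of 26 with Trib3 (median 0.46). Slc38a2 was negative with both, at -0.61 with Atf4 and -0.75 with Trib3. These are descriptions over 7 points that share the same libraries, and the same share over all genes is not given here. Both line means in RPMI-1640 lay above all 5 in DMEM for 3 genes, Eif4ebp1, Ppp1r15a and Vldlr, and below them for 1, Phgdh (4.23% and 4.44% of all genes). Culture medium and colorectal origin cannot be told apart here.

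RECTAS moved a few of these genes, by small amounts. Averaged over the 7 lines, 8 of the 27 genes tested rose and 2 fell (limma adjusted p below 0.05). Among the 8775 genes of the fit, 9.86% were higher and 15.9% lower by the same rule. The set's median difference was 0.02 on the log2(TPM + 1) scale, against a median of -0.003 for all genes. Lower calls made up 61.7% of all calls over the genes tested, 51% of them with median-ratio scaling (7 genes of the set rose and 1 fell) and 47.1% with quantile normalization (9 rose and 1 fell). The other 8 genes of the set (Aldh1l2, Atf3, Cth, Gpt2, Slc7a11, Slc7a3, Stc2 and Vldlr) were below 1 TPM in at least 1 line and were tested only in the lines where they reached it.

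Trib3 had the largest average rise, 0.18 ± 0.0226 (SE; limma adjusted p = 1.77e-07), and was higher in 6 of 7 lines. Its libraries read 18.5, 17.7 and 19.2 TPM with RECTAS in B16, against 13.9, 13.5 and 13.3 TPM with DMSO. In CT26 they read 4.74, 4.64 and 4.59 TPM with RECTAS, against 3.30, 3.25 and 3.64 TPM with DMSO. The groups did not overlap in B16 and CT26, nor in EG7, LLC and MC38, while they overlapped in WEHI3 and Pan02. In MC38, where Trib3 was already most abundant, it read 121, 120.0 and 122 TPM with RECTAS and 118, 117 and 118 TPM with DMSO, and in Pan02 it read 5.90, 5.41 and 6.53 TPM with RECTAS and 7.35, 6.38 and 6.71 TPM with DMSO.

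Chac1 rose by 0.12 ± 0.0254 on average (SE; limma adjusted p = 0.000312) and Atf4 by 0.06 ± 0.0088 (limma adjusted p = 7.27e-06). Chac1 read 12.8, 12.4 and 14.8 TPM with RECTAS in B16, against 11.3, 10.2 and 9.76 TPM with DMSO, and 10.6, 10.7 and 9.77 TPM with RECTAS in EG7, against 8.39, 8.5 and 8.33 TPM with DMSO. In MC38, where it was most abundant, Chac1 read 44.7, 43.0 and 43.6 TPM with RECTAS and 42.8, 42.9 and 45.1 TPM with DMSO. The RECTAS libraries of Chac1 lay above all DMSO libraries in B16, CT26, EG7 and LLC, and the groups overlapped in the other 3 lines.

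The other rises on average were those of Cebpb, a C/EBP factor, at 0.12 ± 0.031 (limma adjusted p = 0.00366), the cationic amino acid transporter Slc7a1 at 0.07 ± 0.0237 (0.0241), Asns at 0.06 ± 0.0119 (0.00023), the mitochondrial folate enzyme Mthfd2 at 0.04 ± 0.0102 (0.00237) and the translation inhibitor Eif4ebp1 at 0.04 ± 0.016 (0.0498). Several of these rested on 1 line. Asns and Mthfd2 were no longer called without B16, Cebpb without MC38, and Slc7a1 without CT26, EG7 or MC38. Slc7a1 and Eif4ebp1 were not called with no filter on low values. Eif4ebp1 also lost its call without any 1 of 27 libraries or of 5 lines, with a pseudocount of 0.1, with median-ratio scaling and with no intensity trend. The calls of Trib3, Chac1, Atf4 and Slc38a2 on average held with each library and each line left out in turn.

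Slc38a2 fell by 0.13 ± 0.023 on average (SE; limma adjusted p = 6.61e-05) and was lower in 7 of 7 lines. It read 78.1, 70.2 and 77.4 TPM with RECTAS in B16, against 91.6, 88.2 and 87.5 TPM with DMSO, and 59.0, 60.3 and 59.1 TPM with RECTAS in MC38, against 65.0, 66.7 and 65.5 TPM with DMSO. The RECTAS libraries lay below all DMSO libraries in B16, EG7, MC38 and WEHI3, and overlapped them in CT26, LLC and Pan02. Its response did not pass the test of a difference between lines (limma F-test adjusted p = 0.616). Shmt2, which feeds serine carbon into the mitochondrial folate pool, was the other gene that fell, by 0.04 ± 0.0135 (limma adjusted p = 0.0259). Its call was lost without CT26, LLC, MC38 or Pan02, under median-ratio or quantile scaling, and with no filter on low values.

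**Figure D2:**
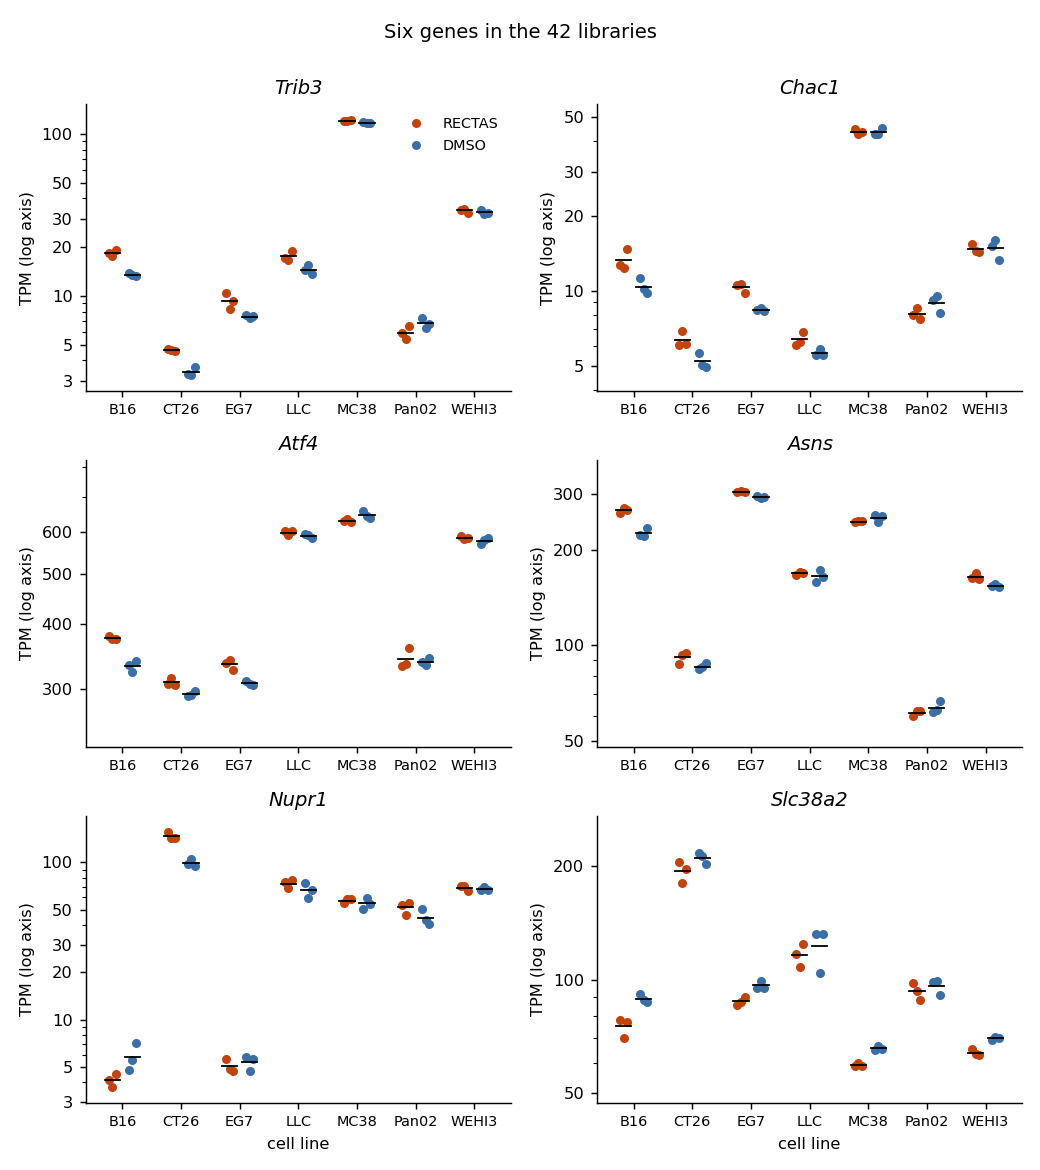
TPM (log axis) of 6 genes in every library, RECTAS (left, red) beside DMSO (right, blue) in each line, with a bar at the mean of 3 libraries. Trib3 lies above DMSO in B16, CT26, EG7, LLC and MC38, Nupr1 is far higher in CT26 than with DMSO, and Slc38a2 has a lower mean in all 7 lines.

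The response of this set differed between the lines, and B16 set most of that difference. The limma F-test with 6 degrees of freedom, which asks whether the 7 within-line differences are equal, called 11 of the 27 genes, against 3.07% of all 8775 genes. The 11 were Asns, Atf4, Cebpb, Chac1, Mthfd2, Nupr1, Psat1, Shmt2, Slc1a4, Slc3a2 and Trib3. B16 had the highest response of the 7 lines in 8 of the 11, and Pan02 the lowest in 5. These 11 were picked by the same responses, and which line is the extreme over all genes is not given here. With B16 left out, 2 of 27 were called, Nupr1 and Trib3, against 0.832% of all genes. Calls over all genes also fell without B16, from 269 to 73. With another line left out, between 8 (MC38 out, 1.98% of all genes) and 13 (LLC out, 12.6% of all genes) were called. Nupr1 lost its call without CT26, Chac1 and Psat1 without Pan02, Cebpb and Shmt2 without MC38, and Slc1a4 without CT26, EG7 or MC38. Cebpb was also not called with median-ratio or quantile scaling, Psat1 with median-ratio scaling and Shmt2 with quantile scaling. With the first principal component of the deviations as a covariate, 18 of the 27 were called.

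In B16, 9 genes had a response above the mean response of the other 6 lines (limma adjusted p below 0.05), against 3.49% of all genes, and 2 had one below it, against 8.27%. Those above were Trib3, by 0.28 ± 0.0645, Chac1, by 0.24 ± 0.0726, Asns, by 0.20 ± 0.0341, Shmt2, by 0.19 ± 0.0386, Slc3a2, by 0.18 ± 0.0287, Mthfd2, by 0.17 ± 0.0293, Atf4, by 0.15 ± 0.0252, Psat1, by 0.14 ± 0.0299, and Phgdh, by 0.14 ± 0.0449 (log2 differences of responses, with SE). Of these 9, 5 are enzymes of asparagine, serine and folate metabolism. Those below were Nupr1, by -0.56 ± 0.104, and Cebpb, by -0.48 ± 0.0886. The contrast was chosen after the F-test had been seen.

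The B16 libraries show the size of these shifts. Atf4 read 380.5, 375 and 375 TPM with RECTAS, against 333, 324 and 340.3 TPM with DMSO, and Asns read 262, 272 and 267 TPM with RECTAS, against 224, 221 and 235 TPM with DMSO. Mthfd2 read 148, 153 and 159 TPM with RECTAS, against 139.5, 133 and 131 TPM with DMSO. All 3 pairs of groups were free of overlap. Cebpb read 20.7, 20.5 and 19.1 TPM with RECTAS, against 25.7, 26.3 and 22.5 TPM with DMSO, again with no overlap but with RECTAS below. Nupr1 was low in B16 altogether, at 4.16, 3.72 and 4.53 TPM with RECTAS and 4.81, 5.53 and 7.17 TPM with DMSO. The median difference of all genes tested in B16 was -0.06.

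Tested within B16 alone, Trib3 (0.42 ± 0.053, SE), Asns (0.23 ± 0.035) and Atf4 (0.18 ± 0.031) rose, and Aldh1l2 (-0.29 ± 0.044) and Slc38a2 (-0.24 ± 0.049) fell, with limma adjusted p-values of 0.0157, 0.0212, 0.0303, 0.0212 and 0.0467 in that order. Of the 12097 genes tested in B16, 0.703% rose and 3.4% fell. Aldh1l2 read 24.7, 23.8 and 25.2 TPM with RECTAS in B16, against 30.5, 30.9 and 29.7 TPM with DMSO, so this folate enzyme fell in the line where Mthfd2 read higher. The within-line calls depended on single libraries: of the set, 0 genes were called without DMSO library 1, DMSO library 2 or RECTAS library 3 of B16, 1 without DMSO library 3 or RECTAS library 2, and 7 without RECTAS library 1. With the replicate number as a block 0 were called, and 2 with no filter or no intensity trend.

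CT26 and Pan02 differed from the other lines in other genes. In CT26, Nupr1 rose by 0.57 ± 0.052 (SE; limma adjusted p = 0.00518), the largest difference of any gene of the set tested in any line on the log2(TPM + 1) scale, while 0 genes of the set fell (0.729% of all genes rose there and 1.26% fell). It read 157, 143 and 144 TPM with RECTAS in CT26, against 97.8, 105 and 94.7 TPM with DMSO, and kept its call with each of the 6 libraries left out in turn. The ratio of mean TPM with RECTAS to that with DMSO was 1.49 for Nupr1 in CT26, and that of Slc7a11, at 2.36 TPM with RECTAS and 1.48 TPM with DMSO, was larger at 1.60 but not called (limma adjusted p = 0.106). The Nupr1 response in CT26 exceeded the mean of the other lines by 0.58 ± 0.104 (limma adjusted p = 0.00459), and 0.171% of all genes had such a call. In Pan02, the responses of Trib3 and Psat1 lay below the mean of the other lines, by -0.41 ± 0.0645 and -0.16 ± 0.0299 (limma adjusted p = 0.00215 and 0.00592, against 0.41% of all genes). Psat1 read 227, 234 and 236 TPM with RECTAS in Pan02, against 249, 259.6 and 266 TPM with DMSO, and did not overlap. No gene of the set had such a call in EG7, LLC, MC38 or WEHI3, where at most 0.228% of all genes had one in either direction. At an unadjusted p below 0.05, limma gave 5 of the 27 in EG7, 2 in LLC, 7 in MC38 and 4 in WEHI3. The share of all genes at that unadjusted p is not given here, so these counts cannot be read as an excess.

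**Figure D3:**
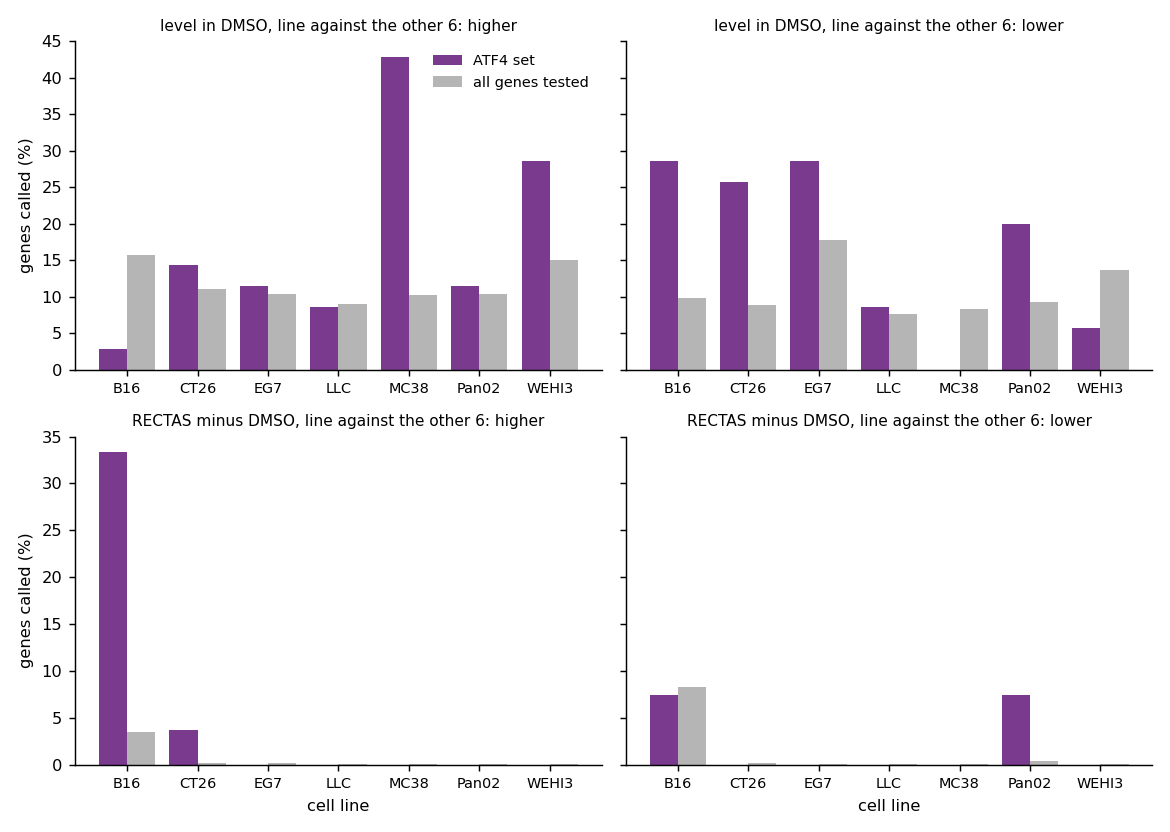
Share of genes called (%), for the 35 (top) or 27 (bottom) genes of the ATF4 set (purple) beside all genes tested (grey), by line. The top row compares DMSO levels of a line with the mean of the other 6 lines and the bottom row compares responses, RECTAS minus DMSO. MC38 leads the higher levels with 15 of 35 genes and B16 the higher responses with 9 of 27.

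Within single lines other calls were few. In EG7 only Chac1 rose, by 0.27 ± 0.050 (SE; limma adjusted p = 0.0395; 1.42% of all genes rose and 1.85% fell), and in MC38 only Cebpb, by 0.36 ± 0.060 (limma adjusted p = 0.0469; 0.41% rose and 0.878% fell). Cebpb read 46.7, 52.6 and 51.5 TPM with RECTAS in MC38, against 37.7, 37.4 and 41.7 TPM with DMSO. Neither call held without any 1 of the 6 libraries of its line, with no filter on low values, with the replicate block or with the principal component, and that of Cebpb was also lost under either scaling and with no intensity trend. With the principal component, 6 genes of the set were called in CT26. In LLC, Pan02 and WEHI3 limma called 0 genes of the set in either direction. Of all genes tested, 0.0422% rose and 0.152% fell in LLC, 0.587% rose and 1.1% fell in Pan02, and 0.551% rose and 1.53% fell in WEHI3. At an unadjusted p below 0.05, limma gave 2 genes of the set higher and 1 lower in LLC (of 32; 1.77% and 5.76% of all genes). In Pan02 it gave 2 higher and 4 lower (of 34; 7.49% and 9.49%). In WEHI3 it gave 2 higher and 3 lower (of 33; 5.12% and 11.3%).

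Libraries without overlap were counted on the TPM as deposited. In CT26, 16 of the 34 genes at 1 TPM or more had all RECTAS libraries above all DMSO libraries and 1 had them all below (15% and 12.5% of all genes). In B16 it was 12 above and 5 below of 29 (8.37% and 26.5%), and in EG7 9 above and 2 below of 29 (14.9% and 11.1%). LLC had 5 above and 1 below of 32 (3.92% and 9.27%). MC38 had 4 above and 8 below of 34 (11% and 11.4%), Pan02 had 1 above and 5 below of 34 (10.4% and 13.4%), and WEHI3 had 2 above and 4 below of 33 (7.59% and 15.1%), 11 in all after median-ratio scaling. By sign alone, the difference was above 0 for 30 of 34 genes in CT26 and for 8 of 34 in Pan02. The share of all genes by sign is not given here, and genes of the same library can shift together. The medians over the set were 0.10 in CT26, against 0.02 for all genes, and -0.05 in Pan02, against -0.01 for all genes. Deviations of each library from its line's mean were also taken for 27 genes of the set. In Pan02 their medians were 0.079, 0.049 and -0.036 in the DMSO libraries and -0.022, -0.020 and -0.041 with RECTAS. DMSO library 3 thus lay among the RECTAS libraries.

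**Figure D4:**
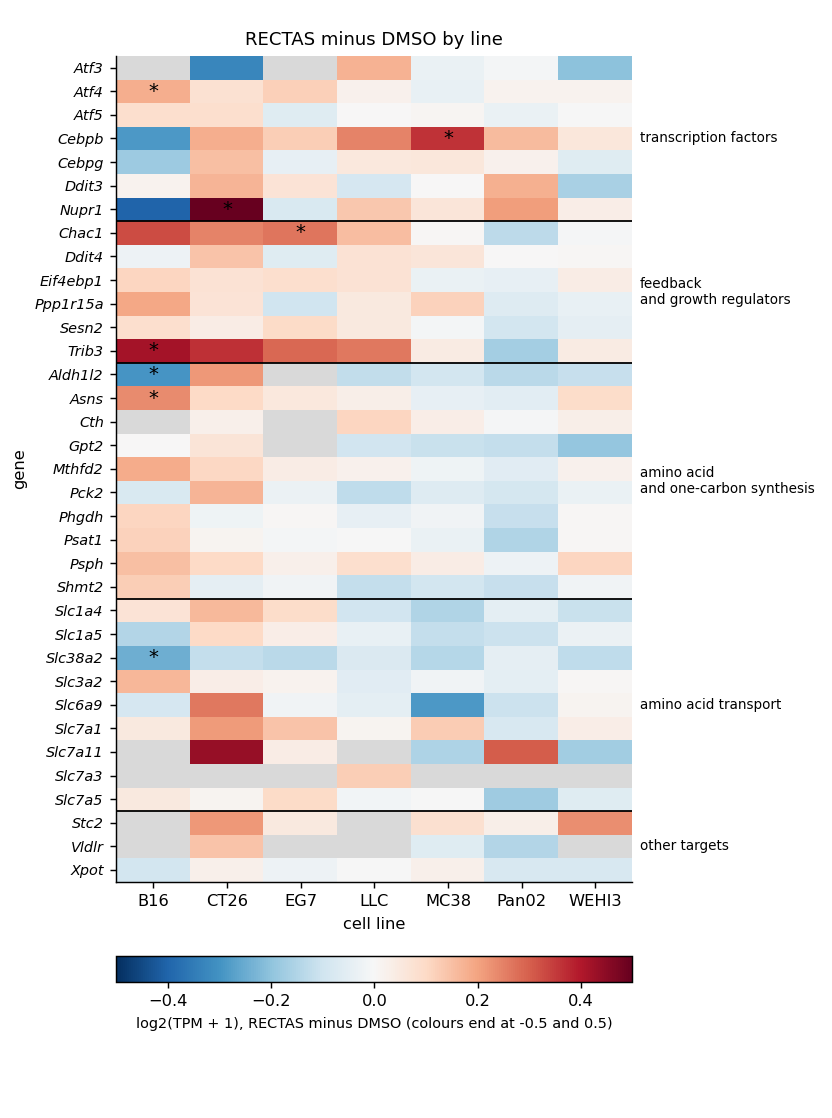
RECTAS minus DMSO for the 35 genes (rows, by role) in the 7 lines (columns), in log2(TPM + 1) from 3 libraries a group, with colours ending at -0.5 and 0.5. Grey cells are below a mean of 1 TPM and a star marks an adjusted p below 0.05. The stars number 5 in B16 and 1 each in CT26, EG7 and MC38.

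By role, 2 of the 6 transcription factors tested in all lines rose on average (Atf4 and Cebpb), and 0 fell. Nupr1 (0.08, limma adjusted p = 0.129), Ddit3 (0.03), Atf5 (0.01) and Cebpg (0.001) were not called. Of the 6 feedback and growth regulators, 3 rose (Trib3, Chac1 and Eif4ebp1), while Ppp1r15a, Ddit4 and the mTORC1 inhibitor Sesn2, at 0.02 to 0.03, were not called. Of the 7 synthesis enzymes, 2 rose (Asns and Mthfd2), 1 fell (Shmt2) and 4 were not called. Of the 7 transporters, 1 rose (Slc7a1), 1 fell (Slc38a2) and 5 were not called. Xpot, the export factor of tRNA, read -0.03 and was not called. Among genes with a promoter window, the response differed between lines in 5 of the 6 tested that hold the element's letters and in 6 of the 18 that do not, and 3 and 6 of them were called on average. These counts are a description only.

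Neighbouring pathways were read from lists of other genes. Of 20 cytosolic aminoacyl-tRNA ligases, which load amino acids onto tRNA and of which several are known ATF4 targets, 7 rose on average and 3 fell, against 9.86% and 15.9% of all genes. The smallest p-values were those of Cars, the cysteine ligase, which averaged 86.5 TPM over the RECTAS libraries and 80.7 TPM over the DMSO libraries (0.11 ± 0.0116, SE; limma adjusted p = 5.5e-09), and of Mars1, the methionine ligase, which averaged 100.9 TPM and 92.5 TPM over the same groups (0.12 ± 0.0133; 6.36e-09). Within lines, 4 ligases rose in B16 (0.703% of all genes), 2 in EG7 (1.42%) and 2 in WEHI3 (0.551%). In CT26, LLC, MC38 and Pan02 limma called 0, and 8, 2, 2 and 4 of the 20 had an unadjusted p below 0.05. At that unadjusted p, 13.1% of all genes were higher and 8.9% lower in CT26, and 1.77% and 5.76% in LLC. The same shares were 7.36% and 8.55% in MC38, and 7.49% and 9.49% in Pan02. The list's median was 0.09 in B16 and -0.05 in Pan02, the highest and the lowest of the 7 lines.

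Of 16 genes for eIF2, its kinases, its exchange factor and its phosphatases, 1 rose and 3 fell, which is 6.25% and 18.8% of the list and near the shares of all genes. Eif2ak4, the kinase that senses uncharged tRNA, fell by 0.10 ± 0.0191 (SE; limma adjusted p = 0.000136), and Ppp1cc, a phosphatase catalytic subunit, fell by 0.04 ± 0.0081 (7.16e-05). Of 16 endoplasmic reticulum stress genes of the ATF6 and XBP1 arms, 3 rose and 1 fell. That is 18.8% and 6.25% of the list, against 9.86% and 15.9% of all genes. Edem1, of the degradation of misfolded glycoproteins, rose by 0.10 ± 0.0229 (SE; limma adjusted p = 0.000975), and the chaperone partner Dnajb9 rose by 0.09 ± 0.0251 (0.00918). The medians of the 3 lists were 0.02, -0.03 and 0.03 in the order given, against -0.003 for all genes.

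Of the 36 rows, 19 overlap another gene in the GENCODE M21 annotation, among them Aldh1l2, Atf5, Cebpb, Ddit3, Mthfd2, Psat1 and Shmt2. The strand setting of the counting is not given in the sources used here, so the share of reads from their neighbours is unknown. Atf4, Asns, Chac1, Trib3, Nupr1, Slc38a2, Slc3a2 and Slc7a1 overlap no other gene.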

How the data were processed

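The TPM values were deposited by the authors, 1 table of 55401 genes per library, and summed to 999998 to 1000003. Per the labels' protocols, the kit was TruSeq stranded mRNA. HISAT2 2.2.0, RSEM 1.3.0 and GRCm38 are named, per the submitters' processing notes, with no role given. TPM values are not counts, so no count model was used and no depth is known.

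The test was limma (3.58.1, under R 4.3.3; moderated variances, intensity trend, two-sided), run on log2(TPM + 1), with Benjamini-Hochberg adjustment over all genes tested and a threshold of 0.05. On this scale the difference understates the change of genes with low TPM. A line's own fit took its 6 libraries and the genes averaging 1 TPM or more in them. The average over lines and the F-test used all 42 libraries and 14 group means, over genes at a mean of 1 TPM or more in each line. Levels were compared over the 21 DMSO libraries, each line against the mean of the other 6, over genes at 1 TPM or more in at least 1 line. The fits were tested on simulated data with known log2 changes, with noise drawn independently for each gene. In the simulated average, 99 of 8740 genes changed by 0.15 and 97 by 0.4. In the data, 865 genes were called higher and 1396 lower on average, and genes of a library can shift together. The recovery rates therefore need not hold for the data. On average over the lines, 84.8% of changes of 0.15 and 97.9% of changes of 0.4 were recovered. Of the 195 calls there, 16 were of unchanged genes. In MC38 alone, 0% of changes of 0.15 and 33.7% of changes of 0.4 were recovered, and 3 of 36 calls were of unchanged genes. Changes of these sizes can thus go uncalled within a line.

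Genes named with values were those called on average, in a line or in the F-test, the 2 with the widest range of line means in each role group, and the 2 with the smallest p in each neighbouring list; Atf4, Ddit3, Ppp1r15a, Cth, the serine enzymes, the Slc7a5 and Slc3a2 chains and the genes not called on average that are named by role (Cebpg, Sesn2 and Xpot among them) were added after their values were seen. The genes and lists were chosen with earlier results of these data known. Gene IDs were looked up in GENCODE M21, where 99.5% matched. Promoter sequences are RefSeq's, on GRCm38.p6. Alternatives were another pseudocount, other filters, 2 scalings, no trend, a replicate block, a principal component of the deviations as a covariate, and each library or line left out. Python 3.11.15 was used for descriptions and figures.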

Additional observations from a re-analysis of the deposited data

Results flagged for a closer look

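The 11 genes below were singled out because their response to RECTAS differed between the cell lines by the limma F-test. The adjusted p was 0.000177 for Trib3, 0.00115 for Atf4, 0.0017 for Asns, 0.00184 for Nupr1, 0.00251 for Mthfd2, 0.00448 for Slc3a2, 0.00459 for Psat1, 0.0142 for Chac1, 0.0173 for Cebpb, 0.0262 for Shmt2 and 0.0307 for Slc1a4. The responses of Trib3 ran between 0.42 in B16 and -0.17 in Pan02, those of Nupr1 between 0.57 in CT26 and -0.40 in B16, and those of Cebpb between 0.36 in MC38 and -0.29 in B16, on the log2(TPM + 1) scale. The call of Slc1a4 was lost without any 1 of DMSO library 2 of B16, DMSO libraries 2 and 3 and RECTAS libraries 1 and 3 of CT26, and DMSO library 2 and RECTAS library 1 of MC38. That of Cebpb was lost without DMSO library 1 or 2 or RECTAS library 3 of B16, and that of Shmt2 without DMSO library 2 or 3 or RECTAS library 2 of B16. Cebpb also lost it with median-ratio scaling and quantile normalization, Psat1 with median-ratio scaling and Shmt2 with quantile normalization.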

How the results depend on the processing

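On average over the lines, 7 to 9 genes rose and 2 fell with any 1 library left out; 1 fell after median-ratio scaling, after quantile normalization, or without LLC, MC38 or Pan02. The number whose response differed between lines was 8 to 12 with 1 library left out, 18 with a principal component of the deviations as a covariate and 2 without B16. Calls in B16 numbered 0 to 7 with 1 library left out, 2 with no filter, 2 with no intensity trend and 0 with the replicate block. In CT26, 2 were called with no trend and 6 with the principal component. In EG7, 0 were called with any 1 library left out, with no filter, with the replicate block or with the principal component, and 2 with a filter at 5 TPM. In MC38, 0 were called with any 1 library left out, with no filter, either scaling, no trend, the replicate block or the principal component, and 2 with a filter at 5 TPM. The level of LLC in DMSO gave 10 calls with a pseudocount of 0.1, and WEHI3 had 11 genes without overlap after median-ratio scaling. The causes were not tested. No result of the set changed its direction under any alternative run. The median average difference of all genes did, from -0.003 to 0.005 with median-ratio scaling and 0.008 with quantile normalization.

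The replicate numbers are shared between treatments, but the labels do not say what they mark. Deviations of same-numbered libraries correlated at over 0.1 in every pair in none of the 7 lines, and most closely in LLC (0.093, 0.286 and 0.151, with each number closest to its own in 3 of 3). With the replicate block, 10 genes rose on average, 2 fell and 11 differed between lines. Depth is unknown, and 3 libraries a group limit calls within a line.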
